A study of Homo sapiens with 4 samples.

Results

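Some of the longest protein-coding mRNAs of human cells were followed here in RNA recovered with SIRT7: those of 6 giant ubiquitin ligases (HUWE1, HERC1, HERC2, UBR4, MYCBP2 and BIRC6) and of the 4 VPS13 lipid transporters (VPS13A, VPS13B, VPS13C and VPS13D). The 10 genes were chosen by name, and all 10 were found among the 23615 genes of the deposited table. RNA immunoprecipitation (RIP) pulls a protein out of a lysate together with the RNA that is held with it. The study applied it to SIRT7, a deacylase of the nucleus and nucleolus, and compared the recovered RNA with total cellular RNA. Both groups came from HEK293T, a human embryonic kidney cell line, that stably overexpressed SIRT7 with a Flag tag and was grown at passages 10 to 15 in DMEM with fetal bovine serum and antibiotics. The input group was total RNA of these cells (2 libraries), and the RIP group was the RNA freed by proteinase K from an anti-Flag gel after washing (2 libraries). Ribosomal RNA was removed from both, and strand-specific libraries were made. The labels name neither the promoter of the transgene nor the number of clones in the line, and do not tell if replicate libraries were grown apart. What the p-values measure is thus only the scatter of these 4 libraries, possibly a technical one. A pull-down without the Flag-tagged bait was not analysed here.

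Ubiquitin ligases attach ubiquitin to other proteins, most often to mark them for the proteasome. The 6 ligases are single chains of unusual size: HUWE1, HERC1 and HERC2 carry a HECT catalytic domain, UBR4 recognises proteins by their N-terminal residue (an N-degron), MYCBP2 (PHR1) passes ubiquitin to hydroxyl groups and acts in axons, and BIRC6 (BRUCE, apollon) combines a ubiquitin-conjugating domain with the BIR domain of the inhibitors of apoptosis. The VPS13 proteins are rod-shaped bridges with a hydrophobic groove along which lipids flow between membranes at organelle contact sites. VPS13A loss causes chorea-acanthocytosis, VPS13B loss causes Cohen syndrome, VPS13C loss causes early-onset parkinsonism, and VPS13D loss causes a spastic ataxia. What the mRNAs share is length: each codes for one of the largest proteins of the cell.

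The bases in front of the transcription start are shown for 2 ligases and 2 VPS13 genes, to describe the genes and their spread in motif content. No value here ties them to the recovery of the mRNAs. They come from RefSeq on GRCh38.p14, while the deposited values were made on hg19. The 250 bases before the start are given 5′ to 3′ on the gene's strand, for UBR4 at chr1:19210267-19210516 (minus strand), HERC2 at chr15:28322180-28322429 (minus), VPS13A at chr9:77177284-77177533 (plus) and VPS13C at chr15:62060448-62060697 (minus). Capitals mark a GC box, GGGCGG or its reverse complement CCGCCC, a motif of many housekeeping promoters.
UBR4: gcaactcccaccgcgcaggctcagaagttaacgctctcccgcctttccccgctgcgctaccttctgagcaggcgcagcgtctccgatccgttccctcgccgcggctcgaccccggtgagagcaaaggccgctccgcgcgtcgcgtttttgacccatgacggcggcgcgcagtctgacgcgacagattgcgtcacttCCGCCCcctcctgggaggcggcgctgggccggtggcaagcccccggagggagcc
HERC2: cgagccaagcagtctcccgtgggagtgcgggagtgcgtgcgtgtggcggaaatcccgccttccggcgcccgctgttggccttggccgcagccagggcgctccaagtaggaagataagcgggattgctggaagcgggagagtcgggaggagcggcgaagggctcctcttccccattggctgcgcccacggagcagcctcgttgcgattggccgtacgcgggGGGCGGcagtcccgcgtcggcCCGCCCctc
VPS13A: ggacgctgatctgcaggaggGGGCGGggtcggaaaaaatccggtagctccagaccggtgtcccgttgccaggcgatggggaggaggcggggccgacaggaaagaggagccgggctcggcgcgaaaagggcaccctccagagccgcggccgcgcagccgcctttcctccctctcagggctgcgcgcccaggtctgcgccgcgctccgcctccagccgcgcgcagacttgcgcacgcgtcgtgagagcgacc
VPS13C: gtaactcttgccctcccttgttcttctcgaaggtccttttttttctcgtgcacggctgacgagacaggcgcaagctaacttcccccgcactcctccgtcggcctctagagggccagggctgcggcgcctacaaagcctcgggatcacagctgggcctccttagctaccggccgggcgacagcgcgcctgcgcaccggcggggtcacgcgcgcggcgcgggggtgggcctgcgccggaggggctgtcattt
The search found 1 GC box in the UBR4 window, 2 in that of HERC2, 1 in that of VPS13A and 0 in that of VPS13C. RefSeq's table held 12 windows for 9 of the 10 genes, and 8 of the 12 held the motif, against 53.7% of the 22199 windows of protein-coding genes. The median GC content of the 12 windows was 67.8% (56 to 76.4%), against 62% over all windows. These are descriptions of the letters, not of factor binding.

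HUWE1 also hosts a pair of let-7 family microRNAs on its own strand of chromosome X, shown because their host was the most abundant of the 10 mRNAs. Their mature forms, from RefSeq on GRCh38.p14, lie at chrX:53557246-53557267 and chrX:53556299-53556320 (minus strand), and the capitals mark the seed (bases 2 to 8), GAGGUAG in both.
hsa-let-7f-5p: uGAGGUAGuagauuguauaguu
hsa-miR-98-5p: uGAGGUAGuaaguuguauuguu
Their genes, MIRLET7F2 and MIR98, were listed at 0 in all 4 libraries, which were not made for small RNA, so HUWE1 fragments were not shared with them in the table.

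The input libraries held 18131602 and 17310753 fragments on genes and the RIP libraries 25655455 and 25998032. In both groups the 2 libraries differed by more than sampling noise, by 6.17 chi-square per gene over 14429 genes in input and 3.40 over 13852 genes in RIP. SIRT7 itself, the bait, stood at 1165 ± 23.4 CPM (SD, n = 2) in input and 43580 ± 534 CPM in RIP (log2 fold change 5.23), where transgene and endogenous mRNA are counted together. CPM here is a gene's fragments at a common library size, after scaling with edgeR's TMM factors. All 9 markers of HEK293T were detected well enough to be tested, with a summed level of 850 and 902 CPM in input and 1114 and 1135 CPM in RIP, and PAX2 stayed below 1 CPM in every library. Of 12 markers of blood, liver, muscle and other cell types, CD3E, INS and MYH6 were at 0 in all libraries and 8 were below 1 CPM. Their summed level was 12.1 to 13.6 CPM in input and 13.9 to 15.1 CPM in RIP. Their part in the results was not tested.

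All 10 mRNAs were lower in the RNA recovered with SIRT7 than in input, by 2.39-fold (HERC2) to 4.17-fold (VPS13A). In this comparison 39.7% of the 14555 genes tested were lower and 38.0% higher by edgeR's quasi-likelihood test at an adjusted p under 0.05. Both RIP libraries lay below both input libraries for all 10 mRNAs, which 45.5% of the tested genes also showed. The median log2 fold change was -1.53 over the 10 mRNAs, -1.35 over the 6 ligases, -1.88 over the 4 VPS13 mRNAs and -0.03 over all genes tested. Together the 10 mRNAs took 0.218% and 0.179% of all gene fragments in input, and 0.0428% and 0.0430% in RIP. The log2 ratio of the group means of these shares was -2.21. Unlike the fold changes above, the shares are not TMM-scaled. Both groups come from the same cells, so a lower value in RIP is a smaller share of the recovered RNA, not a lower level in the cells.

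**Figure D1:**
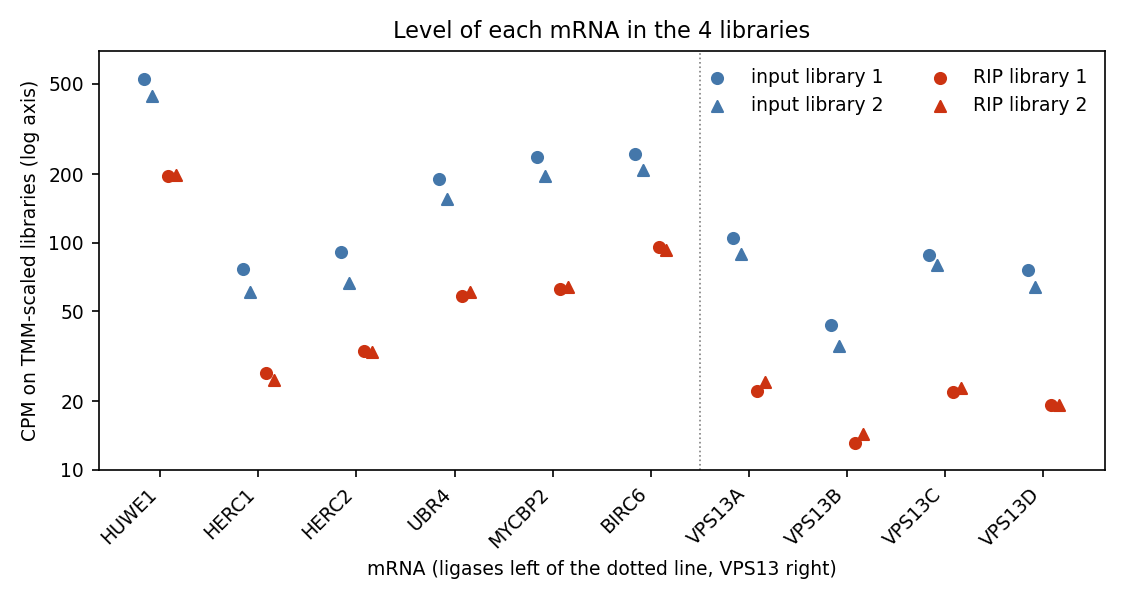
Level of each mRNA in CPM on TMM-scaled libraries (log axis) in the 2 input libraries (blue) and the 2 RIP libraries (red), with circles for library 1 and triangles for library 2. For each of the 10 mRNAs both RIP points lie below both input points, and the first input library lies above the second.

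Among the HECT ligases, HUWE1, which ubiquitinates MCL1, p53 and histones among many other proteins, had the highest level of the 10 mRNAs. It was at 525 and 442 CPM in the input libraries and at 198 and 198 CPM in the RIP libraries. The RIP libraries were nearly equal and lay well under the lower input library, a log2 fold change of -1.29 (SE 0.0815, edgeR adjusted p = 7.243e-10). HERC1, which pairs its HECT domain with RCC1-like repeats, was at 76.3 and 60.7 CPM in input and at 26.7 and 24.9 CPM in RIP. Its log2 fold change was -1.41 (SE 0.104, edgeR adjusted p = 4.791e-09). HERC2, which works with RNF8 at sites of DNA damage, was at 91.5 and 66.7 CPM in input and at 33.2 and 32.9 CPM in RIP. Its input libraries were the furthest apart of the 10 mRNAs, at a ratio of 1.37, yet the groups did not overlap (log2 fold change -1.26, SE 0.117, edgeR adjusted p = 7.100e-08).

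HERC2 has partial copies elsewhere in the genome, so the counting of its fragments is uncertain. The copy HERC2P2 held 611 and 403 fragments in input and 68 and 45 in RIP, against 2152 and 1476, then 662 and 663, for HERC2 itself. HERC2P9 held 127 and 87, then 15 and 26, and the copies HERC2P3, HERC2P4, HERC2P7 and HERC2P10 held at most 47 in any library. HERC2P7 was the exception in direction, with 28 and 37 fragments in input and 41 and 47 in RIP (log2 fold change 0.62, edgeR adjusted p = 0.05472). With HERC2 and its 6 copies summed, a choice made after seeing the data, the log2 fold change was -1.46.

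UBR4, the N-degron ligase, was at 190 and 155 CPM in input and at 58.3 and 60.4 CPM in RIP. It was 2.91-fold lower (log2 fold change -1.54, SE 0.0905, edgeR adjusted p = 3.058e-10). BIRC6, the anti-apoptotic member, was at 245 and 208 CPM in input and at 96.0 and 93.1 CPM in RIP. Its difference was among the smallest of the 10, a log2 fold change of -1.26 (SE 0.0816, edgeR adjusted p = 9.551e-10). MYCBP2 was at 238 and 197 CPM in input, close to BIRC6, but at 62.8 and 63.6 CPM in RIP, under both RIP values of BIRC6. It was 3.45-fold lower and the furthest below input of the 6 ligases (log2 fold change -1.78, SE 0.0876, edgeR adjusted p = 3.870e-11).

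Of the lipid transporters, VPS13A, which bridges the endoplasmic reticulum to mitochondria, lipid droplets and the plasma membrane, was at 105 and 89.5 CPM in input and at 22.2 and 24.3 CPM in RIP. Its log2 fold change of -2.06 was the lowest of the 10 (SE 0.0937, edgeR adjusted p = 1.728e-11), and 4.18% of the tested genes stood lower. VPS13C, which bridges the endoplasmic reticulum to late endosomes and lysosomes, was at 88.4 and 79.7 CPM in input and at 22.0 and 23.0 CPM in RIP. It was 3.74-fold lower (log2 fold change -1.90, SE 0.0861, edgeR adjusted p = 1.626e-11). VPS13D, which acts in mitochondrial shape and clearance and carries a ubiquitin-binding domain, was at 76.0 and 63.6 CPM in input and at 19.2 and 19.3 CPM in RIP. Its log2 fold change was -1.86 (SE 0.0982, edgeR adjusted p = 8.954e-11).

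VPS13B, a Golgi member of the family, had the fewest fragments of the 10, with 1024 and 778 fragments in input and 261 and 290 in RIP. In CPM it was at 43.5 and 35.2 in input and at 13.1 and 14.4 in RIP, a log2 fold change of -1.52 (SE 0.114, edgeR adjusted p = 5.391e-09). It was also the one mRNA whose effective length, the length the authors' FPKM divides by, moved with the groups. In units of the median tested gene that length was 3.35 and 3.05 in input and 2.57 and 2.28 in RIP, whereas it was the same in all 4 libraries for the 6 ligases and moved by little for VPS13A, VPS13C and VPS13D. Per length its difference was therefore smaller: its FPKM was 4.425 and 4.004 in input, against 1.773 and 2.191 in RIP, a log2 ratio of the group means of -1.09.

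In all 10 mRNAs the first input library was above the second, by 1.11-fold (VPS13C) to 1.37-fold (HERC2), while the RIP libraries had ratios of 0.911 to 1.07. Leaving out 1 library in turn ended no call: the log2 fold change nearest to 0 in these fits was -1.02 (HERC2) and the furthest was -2.15 (VPS13A).

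Levels of different mRNAs can be set side by side only per length, and in bulk input RNA a level does not tell fewer cells with an mRNA from less of it per cell. In the authors' FPKM, HUWE1 led in input at 30.7 ± 3.31 (SD, n = 2), followed by MYCBP2 at 13.6 ± 1.62, BIRC6 at 13.5 ± 1.38, UBR4 at 10.2 ± 1.33 and VPS13A at 8.66 ± 0.853. The others lay between 5.85 ± 0.367 FPKM (VPS13C) and 4.01 ± 0.451 FPKM (VPS13D). MYCBP2 and BIRC6 changed places between the input libraries, and HERC2, VPS13B, HERC1 and VPS13D were within 1 SD of a neighbour. In RIP the order in FPKM was HUWE1 at 12.7 ± 0.00438, BIRC6 at 5.70 ± 0.135, MYCBP2 at 3.99 ± 0.0306 and UBR4 at 3.54 ± 0.0838, with no overlap between these neighbours. VPS13A, HERC2 and VPS13B (2.12 ± 0.119, 2.04 ± 0.0186 and 1.98 ± 0.295 FPKM) could not be ordered beyond their spread, nor could HERC1 and VPS13C (1.61 ± 0.0779 and 1.60 ± 0.0509 FPKM). VPS13D was the lowest in RIP at 1.12 ± 0.00489 FPKM.

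All 10 mRNAs were long, and across the tested genes the fold change fell with length (Spearman correlation of -0.60 over the genes, which are no replicates of each other). The effective lengths were 5.42 (HUWE1) to 5.84 (UBR4) times the median tested gene for the ligases, and 2.78 (VPS13B), 3.83 (VPS13A), 4.92 (VPS13C) and 5.98 (VPS13D) times for the VPS13 mRNAs. VPS13D ranked as the 31st and VPS13B as the 818th longest of the tested genes. Of the 818 tested genes at least as long as VPS13B, 718 were lower and 30 higher in RIP, and the median log2 fold change was -1.29. Among 19 genes in the length range of the ligases, which include the 6, 17 were lower and 0 higher. The remaining 13 had a median log2 fold change of -1.28, near the ligases' median of -1.35.

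**Figure D2:**
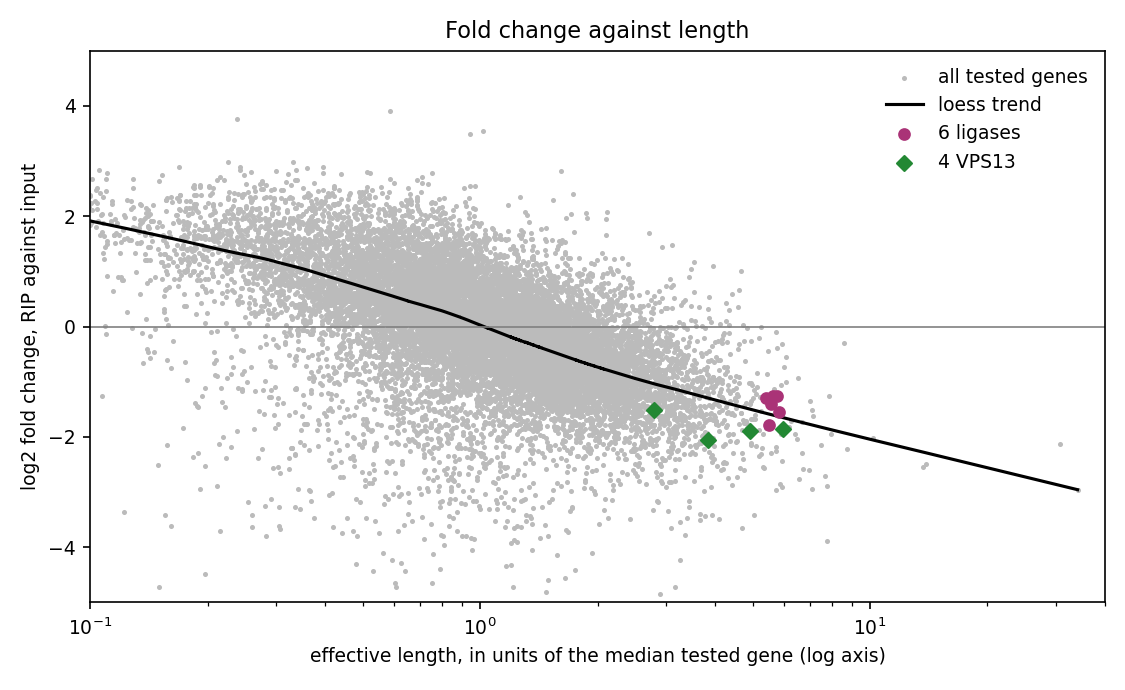
Log2 fold change of RIP against input for each tested gene (grey) against effective length in units of the median tested gene (log axis), with the loess trend in black, the 6 ligases as purple circles and the 4 VPS13 mRNAs as green diamonds. The axes show 14455 of 14555 genes. The ligases lie on both sides of the line, MYCBP2 lowest, and the VPS13 diamonds lie under it.

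At their lengths the trend over all genes ran at log2 fold changes of -1.57 (HUWE1) to -1.65 (VPS13D) for the 7 mRNAs longer than 5 times the median gene, and at -1.50 for VPS13C, -1.29 for VPS13A and -1.03 for VPS13B. The loess trend was then removed in each library and the edgeR test repeated. In that fit 34.7% of the tested genes were higher and 35.6% lower, and of the 10 mRNAs 4 were higher, 5 lower and 1 (UBR4) neither, with a median of -0.05. Of the ligases 4 were higher and 1 lower (median log2 fold change 0.24), and of the VPS13 mRNAs 0 were higher and 4 lower (median -0.44). Over all genes the median was -0.03.

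Of the ligases, BIRC6 had the highest length-corrected log2 fold change, 0.37 (SE 0.0608, edgeR adjusted p = 3.300e-05), 1.29-fold above the trend at its length. HERC2 was at 0.36 (SE 0.0802, edgeR adjusted p = 6.940e-04), and at 0.16 with its pseudogenes summed, where the call was lost (edgeR adjusted p = 0.06983). HUWE1 was at 0.29 (SE 0.0553, edgeR adjusted p = 1.477e-04) and kept its call except where the trend was fitted on the 500 longest genes (0.25, edgeR adjusted p = 0.1739). HERC1 was at 0.20 (SE 0.0787, edgeR adjusted p = 0.03342), a call that 9 of 16 alternatives ended, such as a running median (0.0627, edgeR adjusted p = 0.512), leaving out the first RIP library (0.12, edgeR adjusted p = 0.322) or the second input library (0.14, edgeR adjusted p = 0.163). UBR4 was at 0.10 (SE 0.0621, edgeR adjusted p = 0.165), and its sign turned without the count filter and with a running median. MYCBP2 was the one ligase below the trend, at -0.19 (SE 0.061, edgeR adjusted p = 0.009884), a call that 4 of 16 alternatives ended. These were loess span 0.7, which brought the value to -0.086 (edgeR adjusted p = 0.2237), the trend from the 500 longest genes (-0.22, edgeR adjusted p = 0.1857), and leaving out the first RIP library (-0.21, edgeR adjusted p = 0.0519) or the second (-0.18, edgeR adjusted p = 0.08257).

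These values have to be read beside other genes of the same length. The 13 other genes in the ligases' length range had a median length-corrected log2 fold change of 0.30, with 6 higher and 4 lower, so the ligases' median of 0.24 was no higher than theirs. With the trend fitted on the 500 longest genes, 2 ligases were higher and 0 lower. That fit gives every gene shorter than the 500 the same constant value, not one for its own length. Of all 14555 tested genes, 10326 were called higher there and 1229 lower.

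All 4 VPS13 mRNAs lay under the trend. VPS13A was at -0.76 (SE 0.0732, edgeR adjusted p = 4.724e-08), 1.69-fold below the trend at its length, and ranged from -0.84 to -0.70 over 16 alternatives. VPS13B was at -0.48 (SE 0.0952, edgeR adjusted p = 2.166e-04), and at -0.33 where its longest effective length replaced the mean. VPS13C was at -0.40 (SE 0.075, edgeR adjusted p = 1.174e-04), with a range of -0.50 to -0.31. VPS13D was at -0.20 (SE 0.0774, edgeR adjusted p = 0.02919), a call that 6 of the 16 alternatives ended. Loess span 0.7 brought its value to -0.085 (edgeR adjusted p = 0.341). Others were leaving out the first input library (-0.21, edgeR adjusted p = 0.05116), the first RIP library (-0.22, edgeR adjusted p = 0.08341) or the second RIP library (-0.19, edgeR adjusted p = 0.1406). The calls of VPS13A, VPS13B, VPS13C and BIRC6 stood in all 16. For VPS13B, however, no alternative used a separate length for each library, although its length moved with the groups. Its FPKM, which do so, had a log2 ratio of -1.09, close to the trend of -1.03 at its length. Its place under the trend thus depends on how its length is taken.

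**Figure D3:**
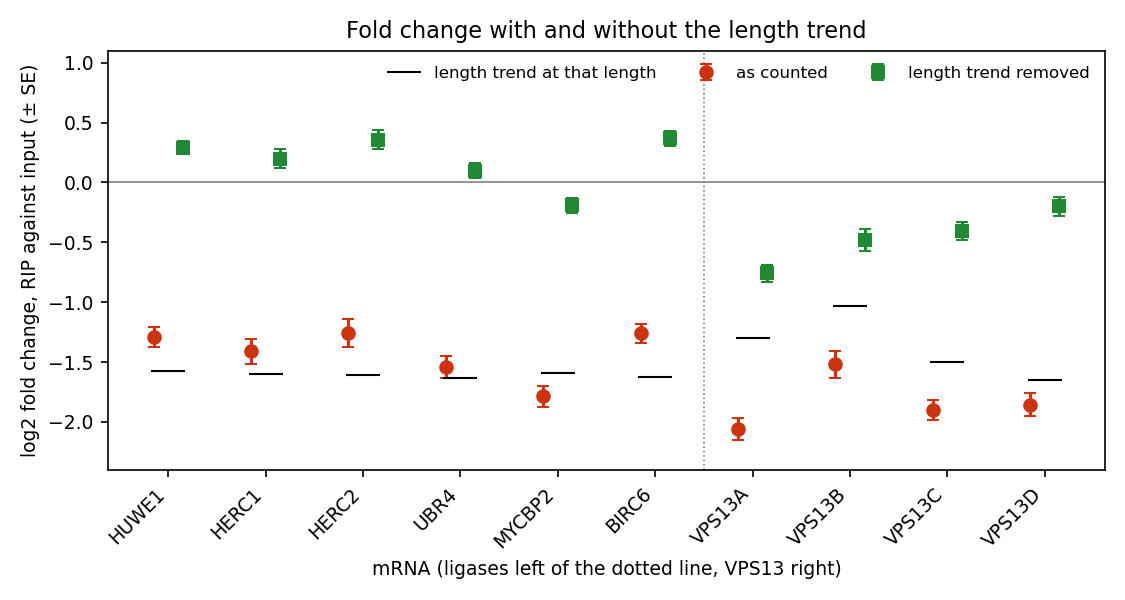
Log2 fold change of RIP against input for each mRNA (± SE, 2 libraries a group) as counted (red circles) and with the length trend removed (green squares), with a black dash at the value of the trend at that length. All red circles lie between -2.06 and -1.26, and the green squares run from -0.76 (VPS13A) to 0.37 (BIRC6).

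**Figure D4:**
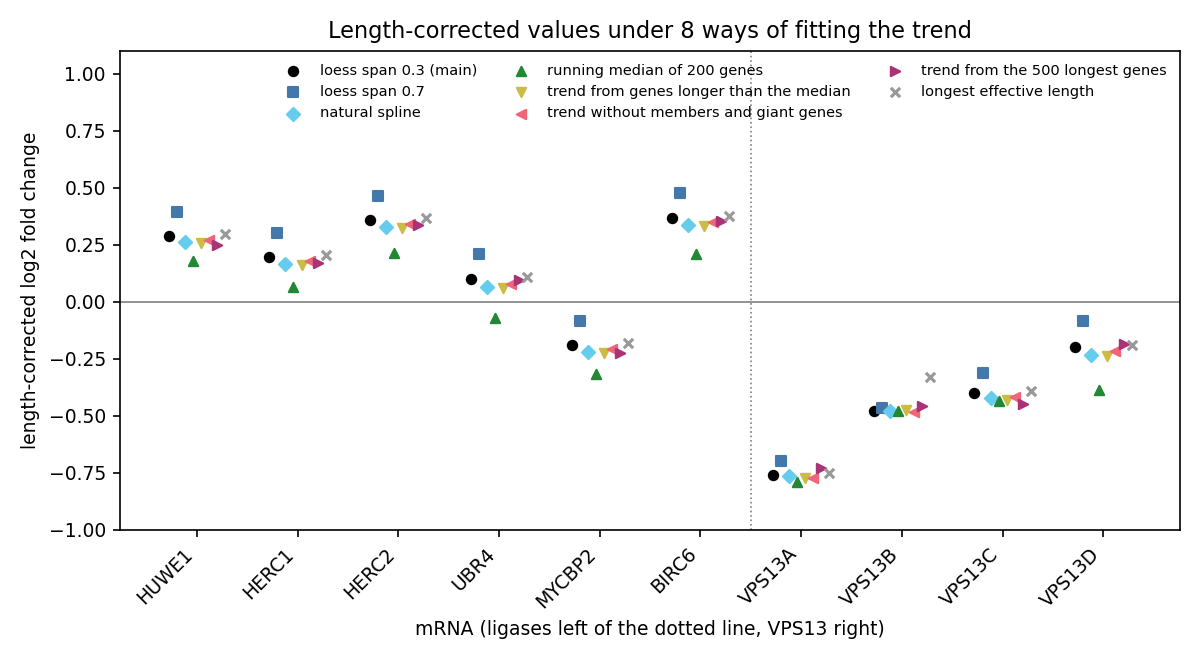
Length-corrected log2 fold change of each mRNA under 8 ways of fitting the length trend, one symbol each. VPS13A, VPS13B, VPS13C, VPS13D and MYCBP2 lie below 0 under each of the 8, and BIRC6, HUWE1, HERC1 and HERC2 above 0. The UBR4 symbols fall on both sides of 0. HUWE1, HERC1, MYCBP2 and VPS13D kept their sign but lost their call under some of the 8.

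Ratios between mRNAs within a library need neither a library scaling nor, for mRNAs of like length, a length correction. The VPS13 mRNAs made up 18.6% and 19.2% of the fragments of the 10 mRNAs in input and 13.9% and 14.6% in RIP, so both RIP libraries were below both input libraries. For each HUWE1 fragment there were 0.454 and 0.446 MYCBP2 fragments in input and 0.318 and 0.321 in RIP, although the 2 mRNAs differ little in length. BIRC6, by contrast, kept its ratio to HUWE1 within the spread: 0.467 and 0.471 in input, 0.486 and 0.470 in RIP, with overlapping groups. VPS13D and UBR4, the 2 longest of the 10, stood at 0.399 and 0.410 VPS13D fragments per UBR4 fragment in input and at 0.330 and 0.320 in RIP. These ratios are given as values, since 2 libraries against 2 allow no p below 0.33 in an exact permutation test (two-sided).

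Within the ligases, MYCBP2 took 17.4% and 17.5% of the 6 ligases' fragments in input and 13.2% and 13.5% in RIP. HUWE1 went the other way, with 38.4% and 39.1% in input and 41.6% and 41.9% in RIP, and HERC1 overlapped between the groups. Within the VPS13 family, VPS13A took 33.5% and 33.4% of the 4 mRNAs' fragments in input and 29.1% and 30.0% in RIP. VPS13B, the shortest, took 13.9% and 13.1% in input and 17.1% and 17.7% in RIP, and VPS13C and VPS13D overlapped between the groups.

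**Figure D5:**
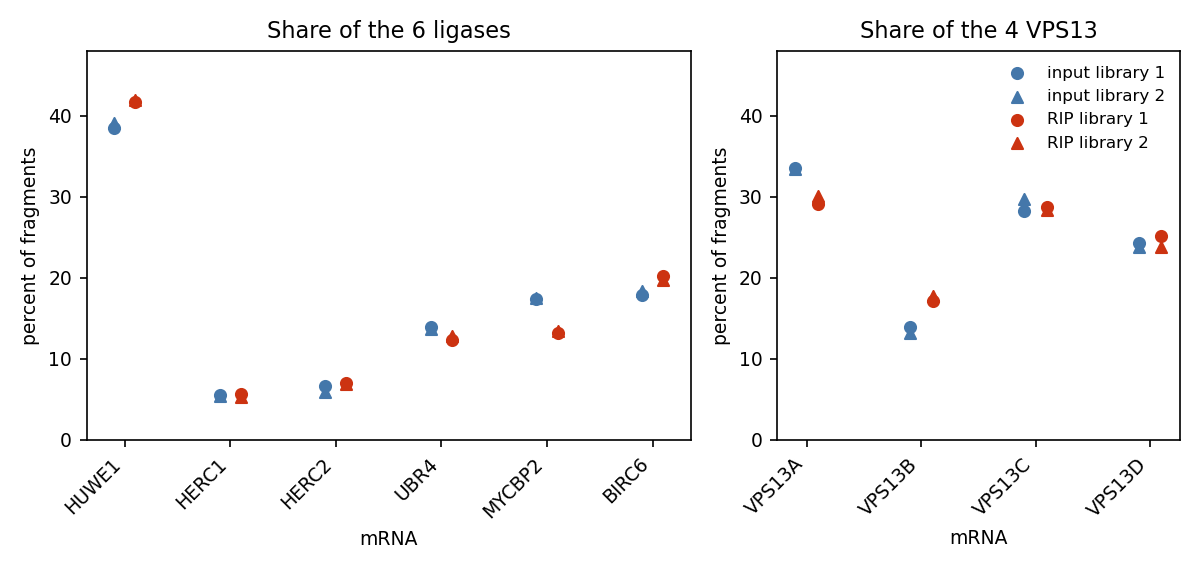
Share of each mRNA among the fragments of the 6 ligases (left) and of the 4 VPS13 mRNAs (right), in percent, in the 2 input libraries (blue) and the 2 RIP libraries (red). MYCBP2 and VPS13A are lower and HUWE1 and VPS13B higher in both RIP libraries than in both input libraries.

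Genes related to these by family, pathway or size were read from 8 lists. Over all tested genes 38.0% were higher and 39.7% lower as counted, and 34.7% were higher and 35.6% lower with the trend removed. Of 24 other HECT-type ligases tested, 21 were lower and 0 higher. Library totals in place of TMM made 24 lower. The median log2 fold change was -0.70. HECTD3 (0.18, and -0.55 with library totals), HERC5 and UBE3B passed neither way, and WWP1, a ligase with WW domains, was the lowest at -1.59. With the length trend removed the list was even, 9 higher and 9 lower, with a median of -0.11. HECTD3 was then at 0.44 and WWP1 at -1.20.

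In the N-degron pathway of UBR4, 4 of 10 genes were higher (KCMF1, NTAN1, WDYHV1 and UBE2B) and 4 lower (UBR1, UBR2, UBR3 and ATE1), which became 0 and 8 with library totals. As counted, both were near the shares over all tested genes (38.0% and 39.7%). The N-terminal amidase NTAN1 was at 0.89 (0.16 with library totals) and the ligase UBR3 at -1.44. KCMF1, the partner with which UBR4 forms a complex, was the one gene of this list that was higher with the trend removed (1.51), while UBR3, ATE1 and UBE2A were lower. KCMF1 was singled out after its value was seen. It was not alone in some alternatives: 3 genes of the list were higher and 3 lower with the spline trend or without the count filter. With the trend from genes longer than the median, which gives shorter genes a constant value, 4 were higher and 2 lower.

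The inhibitors of apoptosis to which BIRC6 belongs divided into 3 higher (BIRC5, and the antagonists DIABLO and HTRA2) and 4 lower (XIAP, BIRC2, BIRC3 and NAIP) of 7 tested, 2 and 4 with library totals. With the trend removed the same 3 were higher and the same 4 lower (median log2 fold change -0.18), but the lower calls were fewer in some alternatives. Without the first or the second RIP library, or with DESeq2, 1 was lower. Without the second input library or with a running median 2 were lower, and with the trend from the 500 longest genes 4 were higher and 2 lower. HTRA2, a mitochondrial protease that BIRC6 can ubiquitinate, was the highest at 1.30. BIRC3 rested on 13 and 20 fragments in input and 2 and 3 in RIP.

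Of 19 genes listed as substrates and partners of the ligases, 6 were higher and 5 lower, or 1 and 15 on library totals. The median log2 fold change was 0.03. The higher end was MYCBP, the MYC-binding protein after which MYCBP2 is named, at 1.09, while the lower end was the replication factor TOPBP1, at -0.92. With the trend removed 10 were higher and 3 lower (MYC, TOPBP1 and XPA), with a median of 0.32. Of 6 ubiquitin precursors and activating enzymes, 5 were higher and only UBA6 lower, with a median of 1.28 (4 and 1 with library totals). With the trend removed UBA6 was instead called higher, at 0.17 (edgeR adjusted p = 0.04274). Some alternatives ended that call, such as library totals (0.16) or no count filter (0.12). RPS27A, a ubiquitin fused to a ribosomal protein, rose to 3880 ± 106 CPM (n = 2) in RIP from 790 ± 62.3 CPM (n = 2), a log2 fold change of 2.30 that was 1.02 with the trend removed. UBB, coding for polyubiquitin, was at 0.97 and, length-corrected, at -0.24. It was the 1 lower call of this list in that fit, and the list had 5 higher and 0 lower without the count filter and with the spline trend. With the trend from genes longer than the median or from the 500 longest genes, the list had 6 higher and 0 lower. Both of those trends give shorter genes, UBB among them, a constant value, so UBB was not corrected there for its own length.

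Among 13 other bridge-like lipid transfer proteins and their partners, 10 were lower and 2 higher (ATG9A and RAB7A), and the median log2 fold change was -0.83. With library totals 13 were lower, RAB7A among them at -0.33. KIAA1109, a bridge-like transporter related in fold to VPS13 and 5.73 times as long as the median gene, was at 51.2 and 38.4 CPM in input and at 5.77 and 5.65 CPM in RIP. Its log2 fold change of -2.97 (SE 0.143, edgeR adjusted p = 3.238e-11) was below those of all 4 VPS13 mRNAs, and it was at -1.34 with the trend removed. Both ATG2 genes, the autophagy bridges, were lower as counted (ATG2A -0.38, ATG2B -1.03) and higher with the trend removed (0.48 and 0.32), opposite to the VPS13 mRNAs. They were singled out after their values were seen. The whole list then had 5 higher and 6 lower genes, with a median of -0.15. Of 13 other lipid transfer proteins at contact sites, 7 were lower and 3 higher (STARD3, RMDN3 and PITPNM1), with a median of -0.55, and 12 were lower and 0 higher with library totals. PDZD8, which links the endoplasmic reticulum to mitochondria and endosomes, was the lowest at -2.15, and at -1.83 with the trend removed. The whole list then had 4 higher and 6 lower genes, with a median of -0.11.

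Other giant proteins served as a comparison for protein size. They were not matched in effective length, which ran from 1.81 (ANKHD1) to 10.2 (SYNE1) times the median tested gene. Of 37 such mRNAs tested, 36 were lower and only ANKHD1 higher, and 37 were lower with library totals. Their median log2 fold change of -1.76 was below that of the ligases (-1.35) and above that of the VPS13 mRNAs (-1.88). With the trend removed 10 were higher and 21 lower, with a median of -0.24. The 3 longest of them, the nuclear envelope proteins SYNE1 and SYNE2 and the histone methyltransferase MLL2, were at -2.02, -2.14 and -1.61 as counted. With the trend removed they were at 0.04, -0.31 and 0.18.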

How the data were processed

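RNA of 2 input and 2 RIP libraries was analysed from 1 deposited table of 23615 genes. The submitters' processing notes name hg19, Cuffdiff 2.2.1, TopHat2 2.0.13, Bowtie2 2.2.6 and cutadapt 1.5. Annotation, strand setting and the counting of multi-mapping reads: not given in the sources used here. As deposited by the authors, expected counts estimate each gene's fragments (97.94% were whole numbers). The deposited scaled signal is the same fragments divided by 1 factor per library, and the deposited FPKM are scaled fragments per length and library size. The table numbers its replicates from 0, which was read as the labels' first replicate.

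Rounded counts of 14555 genes that passed filterByExpr (minimum count 10, total 15) went into edgeR 4.0.16 under R 4.3.3 (TMM, quasi-likelihood, group only, Benjamini-Hochberg over all genes, 0.05). TMM factors were 1.298 and 1.278 in input, 0.777 and 0.776 in RIP. The SE is the log2 fold change divided by the square root of F. Effective length is scaled signal over FPKM. For the length-corrected fit, in each library a loess (span 0.3) of log2 CPM minus the gene mean on log2 length was added to the offsets. DESeq2 1.42.0, limma 3.58.1 on log2(FPKM + 1) and log2(FPKM + 0.1), other trends, leaving out each library and the replicate number as a block were alternatives. The fits were tested on simulated data. Depth limits counting error only, as the labels name no molecular identifiers.

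The members, lists and tests were chosen with earlier results of these data known. The rule named all 10 members, the extremes of each list (the 3 longest giant mRNAs) and SIRT7. Of the 2 highest and 2 lowest genes that it allowed per list, at most 1 each is described with values, and genes behind counts of 5 or fewer were named after their values were seen. Deviations from the group means of libraries with the same number had a correlation of 0.0168 over 14555 genes.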

Additional observations from a re-analysis of the deposited data

How the results depend on the processing

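As counted, the 10 mRNAs kept their direction and call in every alternative run. The log2 fold changes were lowest in all cases with library totals (-1.99 for HERC2 and BIRC6 to -2.79 for VPS13A). Library totals moved the median of all tested genes from -0.03 to -0.76 and the calls to 2479 higher and 9539 lower (20.6% of calls higher, against 48.9%), and turned HECTD3 to -0.55 and RAB7A to -0.33. NTAN1 (0.16, edgeR adjusted p = 0.158) and STARD3 (0.05, edgeR adjusted p = 0.5932) lost their calls there.

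With the trend removed, the number of lower mRNAs ran from 3 to 5 over the fits that left out 1 library, and of lower ligases from 0 to 1. With loess span 0.7 they were 3 and 0, and UBR4 was called at 0.21. The trend from the 500 longest genes was an alternative chosen after seeing the data. By construction it gives all shorter genes a constant value, that at the shortest of the 500, and not a value for their own length. The median of all tested genes was 1.03 in that fit, against -0.03. There 1229 genes were lower and 10326 higher, 3 of the 10 mRNAs were lower and 2 higher, and 0 ligases were lower and 2 higher. There NTAN1 was at 1.93 and TOPBP1 at 0.13. The trend from genes longer than the median, which likewise gives shorter genes a constant value, put NTAN1 at 0.87 and SYNE1 at -0.02. The spline put NTAN1 at 0.0761 and SYNE1 at -0.0605. The running median put UBR4 at -0.0707, SYNE1 at -0.56 and MLL2 at -0.14. Without the count filter UBR4 was at -0.00949, NTAN1 at 0.25 and SYNE1 at -0.11. Without 1 library SYNE1 ran from -0.20 (without the first RIP library) to 0.243, with -0.0226 without the first input library, and RAB7A from -0.0316 (without the second input library) to 0.175. For the reversals under other trends and filters the cause was not tested.

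The labels give both groups the same replicate numbers without saying that they pair libraries. With the replicate number as a block, HUWE1 was at -1.28 and, length-corrected, at 0.29, and no call of the 10 mRNAs changed. Each group has 2 libraries, so leaving 1 out assumes that the lone library varies like the other group. VPS13B, with the fewest fragments of the 10, rests on 261 to 1024 fragments a library.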

Other observations

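Since the strand setting of the counting is not given, the antisense genes of the 10 mRNAs were looked at. MYCBP2-AS1 held 2, 2, 2 and 0 fragments and VPS13A-AS1 2, 5, 2 and 3 in the input and then the RIP libraries, against at least 1251 for MYCBP2 and 443 for VPS13A in each. The small RNA genes MIR558 and SNORA59A were listed at 0 in all 4 libraries.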
